A study of Homo sapiens with 12 samples.

Results

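The urea cycle genes CPS1, OTC, ASS1, ASL, ARG1, ARG2, NAGS and SLC25A15 and the glutaminase gene GLS2 were examined in sorafenib-resistant and parental liver cancer cells. The members were the rows of the deposited tables that carry one of these 9 symbols, out of 98711 rows, of which 27249 are Ensembl genes. All 9 were found once in each of the 12 samples. NAGS rose in resistant Huh7 cells and fell in resistant HepG2 cells, with 2.86-fold more and 4.12-fold less than in the parental cells. ARG2 and ASS1 fell in resistant HepG2 cells, and SLC25A15 rose in resistant Huh7 cells. CPS1 was lower in resistant Huh7 cells and overlapped between the HepG2 groups.

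The urea cycle disposes of ammonia in the liver. In mitochondria, NAGS makes N-acetylglutamate, the obligate activator of CPS1, which turns ammonia and bicarbonate into carbamoyl phosphate. OTC joins this to ornithine, which SLC25A15 brings into mitochondria in exchange for citrulline. In the cytosol, ASS1 joins citrulline with aspartate, ASL splits the product into arginine and fumarate, and ARG1 splits arginine into urea and ornithine. ARG2 is the mitochondrial arginase, found mainly outside the liver, and GLS2 is the liver-type glutaminase, which releases ammonia from glutamine.

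Huh7 and HepG2 are human liver cancer lines that keep much of the hepatocyte program. The genotype label is WT for all 12 samples. Each line was sampled as parental cells, which the labels call sorafenib sensitive, and as sorafenib-resistant cells, which gives 4 groups of 3 samples. Resistant cells had survived a first dose of 10 μmol sorafenib, a multikinase inhibitor, and further rounds of exposure to rising doses over 8 months. Whether a resistant line is 1 clone, whether sorafenib was present at harvest and whether the samples are separate cultures is not stated, so p-values measure only the spread between these samples. In bulk RNA, fewer cells that express a gene and less RNA per cell cannot be told apart.

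Values are FPKM (reads scaled by exon length and library size), which allow levels of different genes to be compared. Between 12290120 and 19286010 reads stood behind a library, with the 3 lowest numbers in parental HepG2 cells. All 8 hepatocyte markers examined, among them ALB and APOA1, were at 1 FPKM or more in all 4 groups, and their summed level was 3312 to 3469 FPKM in parental and 3097 to 3289 FPKM in resistant Huh7 cells, and 4957 to 5794 FPKM in parental and 4555 to 4970 FPKM in resistant HepG2 cells. The sum over 5 intestinal epithelium markers was 55.8 to 59.0 FPKM in parental and 123 to 133 FPKM in resistant Huh7 cells, with CDH17, VIL1, LGR5 and CDX2 at 1 FPKM or more in both and MUC2 under it. In HepG2 it was 62.3 to 79.7 FPKM in parental and 76.7 to 87.6 FPKM in resistant cells. The part of this difference in the results below was not tested. The fibroblast, leukocyte and endothelial lists each summed to at most 8.84 FPKM in any sample.

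The promoters of the 3 members that fell in resistant HepG2 cells are shown here, since these were the members called in that line. Whether the 3 genes share regulation was not tested. Each is the 250 bases before the start site in RefSeq, on the plus strand of GRCh38.p14. For ASS1, which has 2 listed starts, the one nearest the gene's start in the deposited tables was taken. The starts used lay downstream of the deposited ones, by 76 bases for NAGS, 122 for ARG2 and 32 for ASS1. The last bases of each window thus lie within the gene as deposited. The windows are chr17:44004372-44004621 for NAGS, chr14:67619670-67619919 for ARG2 and chr9:130444711-130444960 for ASS1. Capitals mark matches, on either strand, to the GC box GGGCGG, the CCAAT box CCAAT, the cAMP response element TGACGTCA, the AP-1 element TGANTCA and the E-box CACGTG.
NAGS: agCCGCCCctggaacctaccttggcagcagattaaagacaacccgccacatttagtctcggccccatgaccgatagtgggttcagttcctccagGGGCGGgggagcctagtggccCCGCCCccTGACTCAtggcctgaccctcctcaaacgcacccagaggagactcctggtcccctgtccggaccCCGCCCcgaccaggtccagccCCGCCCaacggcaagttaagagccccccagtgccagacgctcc
ARG2: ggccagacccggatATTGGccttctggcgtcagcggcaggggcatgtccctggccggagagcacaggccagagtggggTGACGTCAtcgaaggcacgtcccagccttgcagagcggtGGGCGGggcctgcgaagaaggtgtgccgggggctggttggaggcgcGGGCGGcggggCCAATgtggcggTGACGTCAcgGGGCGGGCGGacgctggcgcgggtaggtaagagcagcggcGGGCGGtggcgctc
ASS1: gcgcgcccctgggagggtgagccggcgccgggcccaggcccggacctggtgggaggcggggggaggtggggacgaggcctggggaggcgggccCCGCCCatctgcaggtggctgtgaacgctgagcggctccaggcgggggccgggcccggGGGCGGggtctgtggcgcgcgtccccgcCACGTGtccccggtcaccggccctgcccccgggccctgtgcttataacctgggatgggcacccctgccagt

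The ARG2 window held TGACGTCA at 2 places, at -172 to -165 and -64 to -57 from the start, a sequence found in 1.6% of the 35116 RefSeq promoters of the same length. The NAGS window held TGANTCA once, as do 6.6% of promoters, and the ASS1 window held CACGTG once, as do 6.3%. GGGCGG stood in all 3 windows, 5 times in NAGS, 5 times in ARG2, where 2 of the matches overlap, and 2 times in ASS1, and in 42.6% of all promoters. Over all 9 members, 6 held GGGCGG, 1 held TGACGTCA, 1 held TGANTCA, 1 held CACGTG, 2 held CCAAT (32% of all promoters) and 2 held TATAAA (10.7%). None of the 9 held TTGCNNAA (9.1% of all promoters) or AGGTCA (12.1%), which says only that these letters are not in these windows. The windows of the 3 genes had a GC content of 65.6% for NAGS, 72.4% for ARG2 and 78.8% for ASS1, against a median of 58% over all promoters. These matches are descriptions of the sequence, and binding was not measured.

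**Figure D1:**
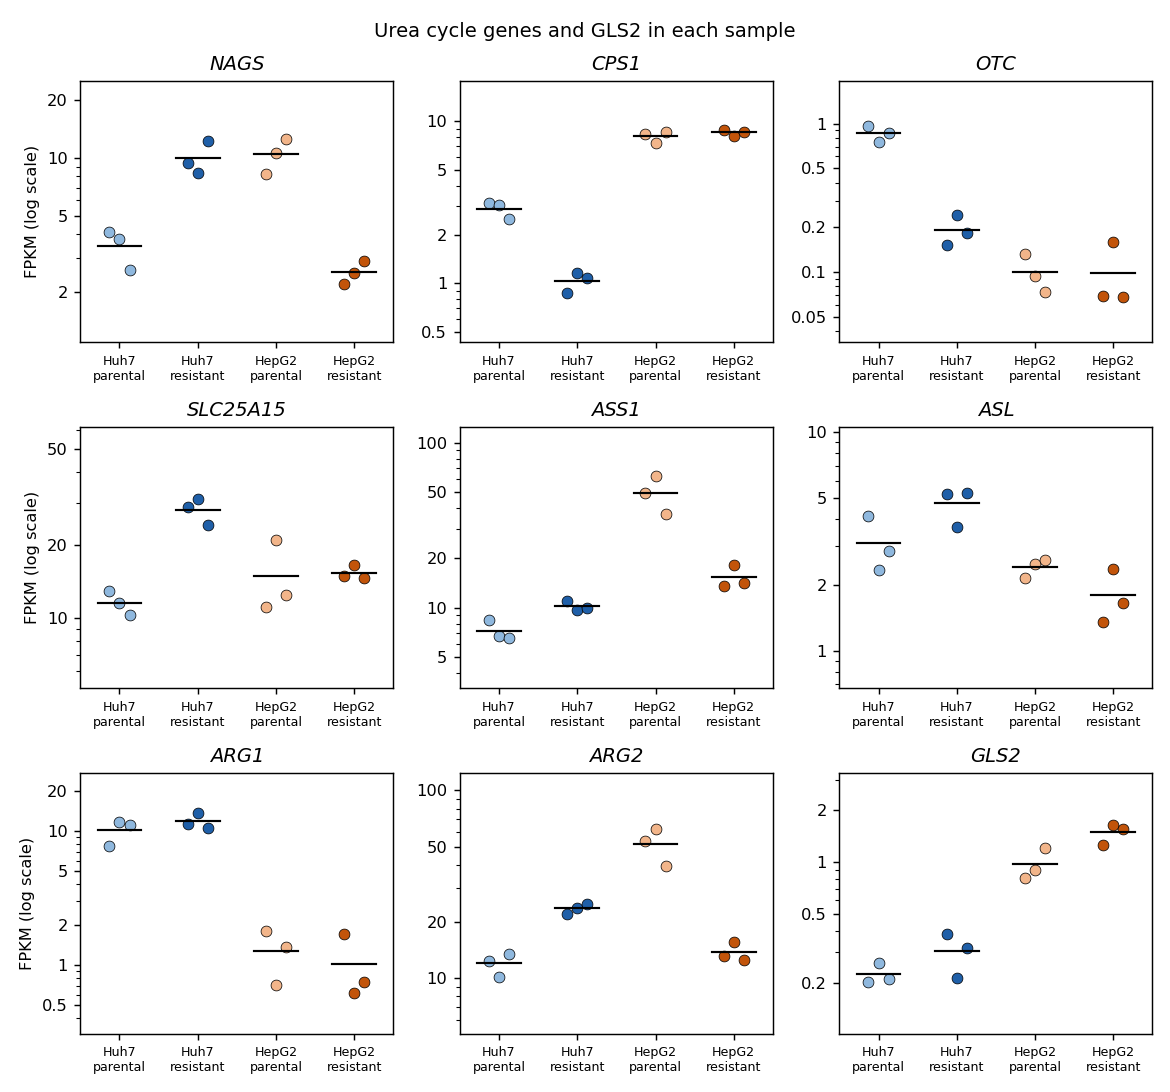
FPKM of each of the 9 genes (y axis, log scale, with its own range in each panel) in the 4 groups (x axis). Points are the 3 samples of a group and lines their mean; NAGS runs in opposite directions in the 2 lines, ARG1 is separated by line, and OTC stays under 1 FPKM in every sample.

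The first comparison asks which of these genes differ between resistant and parental Huh7 cells. A gene was tested when it reached 1 FPKM in at least 3 of the 6 samples, and it was called when its log2 fold change of FPKM + 1 lay beyond 1 at a limma adjusted p-value under 0.05. Of the 7 members tested, 2 were called higher and none lower, where 22.6% of all genes tested were called, 8.59% higher and 14% lower. With the fold left aside, 6 of the 7 had an adjusted p-value under 0.05, against 70.1% of all genes. The groups did not overlap for 5 of the 7, against 74.5% of genes tested. With 7 members, the shares called in either direction, under the adjusted p-value and without overlap are close to those of all genes. The called members were higher, whereas more of all genes were called lower than higher. The median log2 fold change of the 7 was 0.49, and that of all genes was -0.04.

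NAGS, at 17:44004546-44009063 on the plus strand of GRCh38, stood at 4.09, 3.77 and 2.61 FPKM in parental Huh7 cells and at 9.36, 8.34 and 12.2 FPKM in resistant Huh7 cells. Every resistant sample was above every parental sample. The means were 3.49 ± 0.777 and 9.98 ± 2.03 FPKM (SD, n = 3 each), and the log2 fold change was 1.29 (SE 0.17, limma adjusted p = 0.000291). SLC25A15, the mitochondrial ornithine carrier at 13:40789412-40810111 on the plus strand, stood at 12.8, 11.5 and 10.2 FPKM in parental and at 28.6, 30.9 and 24.3 FPKM in resistant Huh7 cells. Its groups did not overlap either, with a log2 fold change of 1.21 (SE 0.13, limma adjusted p = 0.000101).

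ARG2, at 14:67619798-67651720 on the plus strand, was at 12.4, 10.1 and 13.5 FPKM in parental and at 22.0, 23.6 and 24.9 FPKM in resistant Huh7 cells. This was 1.96-fold higher, with groups apart, and a log2 fold change of 0.92 (limma adjusted p = 0.000278) just short of the fold required. CPS1, at 2:210477682-210679107 on the plus strand, went the other way. It stood at 3.12, 3.06 and 2.50 FPKM in parental and at 0.866, 1.16 and 1.08 FPKM in resistant Huh7 cells. The mean was 2.79-fold lower and the log2 fold change was -0.93 (SE 0.12, limma adjusted p = 0.000215), which also missed the fold. The added value of 1 compresses a gene this low: with a pseudocount of 0.1 the log2 fold change of CPS1 was -1.40 and with limma-voom on reads -1.55, both past the fold.

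OTC, at X:38352545-38421450 on the plus strand, did not reach 1 FPKM in any sample and was not tested. It had 30, 22 and 24 reads in the parental Huh7 samples and 5, 8 and 6 in the resistant samples, or 0.861 ± 0.106 against 0.192 ± 0.0445 FPKM. When low genes were kept in the fit, its log2 fold change in Huh7 was -0.64 (limma adjusted p = 0.00133). In HepG2 it had 3, 2 and 2 reads in parental and 2, 5 and 2 in resistant cells, and no difference could be detected at this depth. The mitochondrial enzymes that lead to citrulline, CPS1 and OTC, thus both had lower values in resistant than in parental Huh7 samples, while NAGS, which makes the activator of CPS1, and SLC25A15 rose.

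Of the cytosolic enzymes in Huh7, ASS1, at 9:130444929-130501274 on the plus strand, was at 8.46, 6.71 and 6.51 FPKM in parental and at 10.96, 9.69 and 10.0 FPKM in resistant cells. The groups did not overlap, with a log2 fold change of 0.45 (limma adjusted p = 0.00972). ASL, at 7:66075798-66093558 on the plus strand, was at 4.13, 2.34 and 2.85 FPKM in parental and at 5.20, 3.67 and 5.28 FPKM in resistant cells. Here 1 parental sample lay above the lowest resistant sample, and the log2 fold change was 0.49 (limma adjusted p = 0.0428). ARG1, at 6:131573144-131584332 on the plus strand, was at 7.80, 11.8 and 11.02 FPKM in parental and at 11.2, 13.7 and 10.5 FPKM in resistant cells, groups that overlap (log2 fold change 0.21, 95% interval -0.17 to 0.58, limma adjusted p = 0.282). GLS2, at 12:56470944-56488414 on the minus strand, was at 0.202, 0.258 and 0.209 FPKM in parental and at 0.382, 0.213 and 0.318 FPKM in resistant Huh7 cells, was not tested, and its groups overlap.

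The calls in Huh7 depend on the GC content of the transcripts, as the plot against GC content shows. Removing each library's GC trend left 0 of the 7 members called. NAGS, whose longest transcript has 63.8% GC, went to a log2 fold change of 0.81 (limma adjusted p = 0.00049) and SLC25A15, with 49.9% GC, to 0.98 (limma adjusted p = 0.000162). ARG2, with 47.1% GC, stood at 0.90, and CPS1, with 43.8% GC, at -0.65, each with an adjusted p-value under 0.05. ASS1 and ASL, with 57.4% and 59.4% GC, went to -0.078 (limma adjusted p = 0.312) and -0.054 (limma adjusted p = 0.715). ARG1, with 42.4% GC, went from 0.21 to 0.62 (limma adjusted p = 0.00456). Whether the GC trend is technical was not tested.

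**Figure D2:**
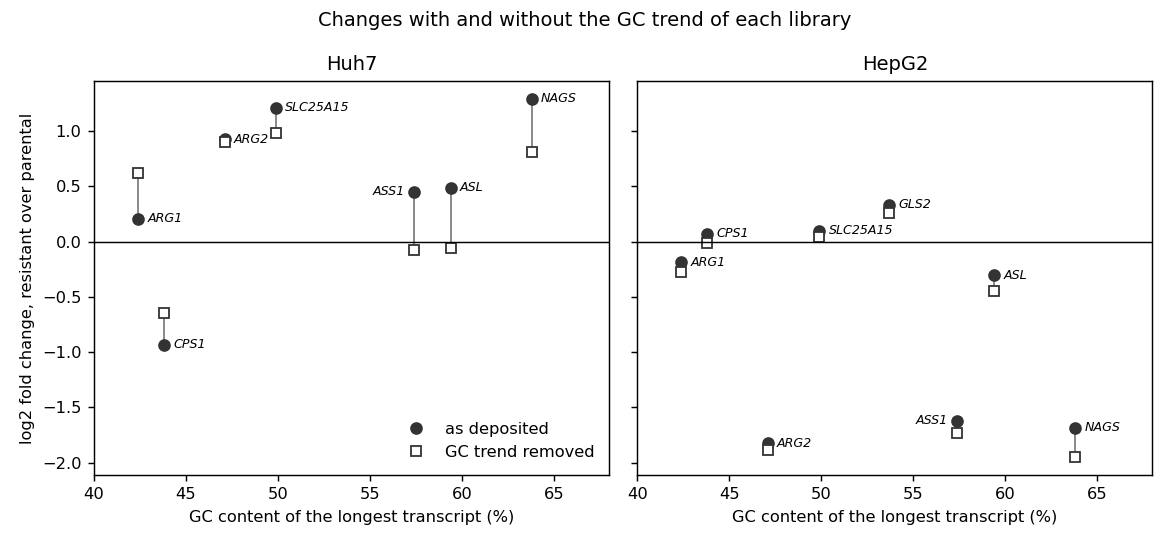
log2 fold change of the tested members (y axis, resistant over parental) against the GC content of the longest transcript in percent (x axis), in Huh7 on the left and HepG2 on the right. Filled circles are the deposited values and open squares the values once each library's GC trend had been removed; in Huh7 ASS1 and ASL go from 0.45 and 0.49 to just below 0, while in HepG2 ARG2, ASS1 and NAGS stay below -1.

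The second comparison asks the same of HepG2. Of the 8 members tested, 3 were called lower and none higher, where 6.27% of all genes were called, 3.29% higher and 2.98% lower. The same 3 were the members with an adjusted p-value under 0.05, which 20% of all genes had. ARG2, NAGS and ASS1 ranked 62, 81 and 100 from the lowest log2 fold change among 11762 genes. The groups did not overlap for 4 of the 8, against 40.4% of genes. The median log2 fold change of the 8 was -0.24, and that of all genes 0.12.

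ARG2 was at 53.8, 62.2 and 39.5 FPKM in parental and at 13.1, 15.6 and 12.5 FPKM in resistant HepG2 cells. Every parental sample was more than 2 times above every resistant sample, and the means were 51.8 ± 11.5 and 13.7 ± 1.66 FPKM, a fall of 3.77-fold. The log2 fold change was -1.82 (SE 0.19, limma adjusted p = 0.000858). NAGS was at 8.29, 10.6 and 12.5 FPKM in parental and at 2.197, 2.52 and 2.90 FPKM in resistant HepG2 cells, again with groups well apart. Its log2 fold change was -1.68 (SE 0.18, limma adjusted p = 0.00088). ASS1 was at 49.6, 62.3 and 37.0 FPKM in parental and at 13.6, 18.2 and 14.0 FPKM in resistant HepG2 cells. It was 3.26-fold lower, with a log2 fold change of -1.62 (SE 0.21, limma adjusted p = 0.00195).

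The other members in HepG2 were not called. CPS1 was at 8.33, 7.37 and 8.62 FPKM in parental and at 8.88, 8.17 and 8.57 FPKM in resistant cells, so that the groups overlap (log2 fold change 0.07, 95% interval -0.23 to 0.37, limma adjusted p = 0.736). SLC25A15 was at 11.1, 20.9 and 12.5 FPKM in parental and at 14.9, 16.6 and 14.6 FPKM in resistant cells, with 1 parental sample above all others (log2 fold change 0.10, 95% interval -0.41 to 0.61, limma adjusted p = 0.784). ASL was at 2.15, 2.50 and 2.59 FPKM in parental and at 1.35, 2.36 and 1.66 FPKM in resistant cells (log2 fold change -0.30, limma adjusted p = 0.237). The 95% interval of CPS1 excludes a change of the size seen for NAGS, ARG2 or ASS1.

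ARG1 was at 1.78, 0.704 and 1.36 FPKM in parental and at 1.71, 0.612 and 0.739 FPKM in resistant HepG2 cells, and its groups overlap (log2 fold change -0.19, limma adjusted p = 0.629). It rested on 17 to 57 reads a sample and was at 1 FPKM or more in 3 of 6 samples. GLS2 was at 0.809, 0.904 and 1.21 FPKM in parental and at 1.25, 1.65 and 1.56 FPKM in resistant cells. All resistant samples were above all parental samples, but the log2 fold change of 0.33 (SE 0.15, limma adjusted p = 0.153) did not pass.

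**Figure D3:**
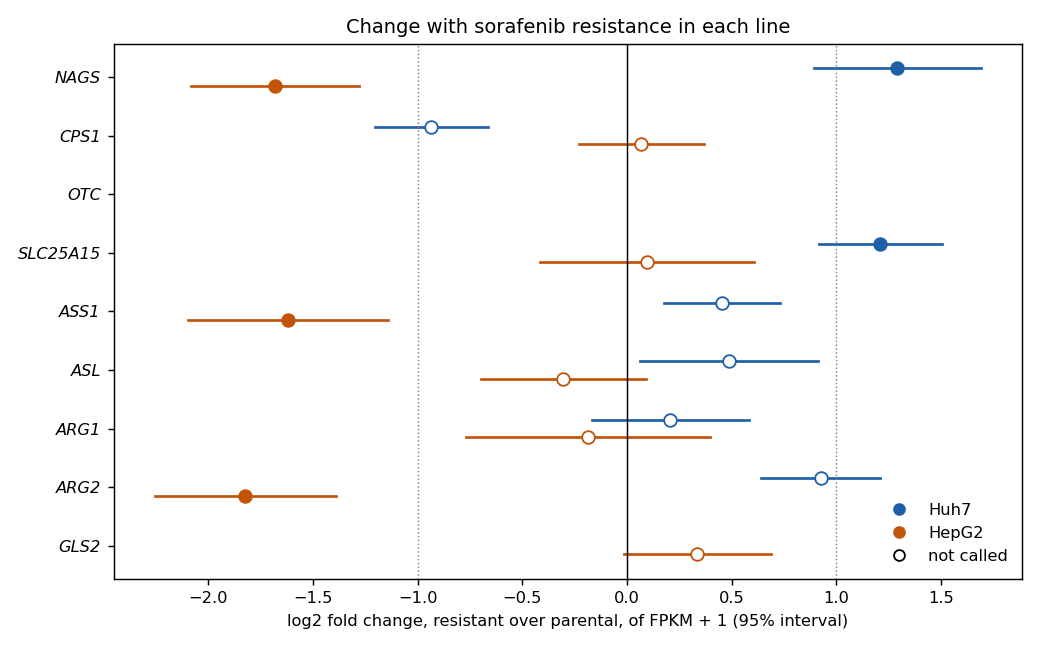
log2 fold change of FPKM + 1, resistant over parental (x axis), with its 95% interval for each member tested (y axis), in Huh7 (blue) and HepG2 (orange). Filled points were called, open points were not, and dotted lines mark the fold required; NAGS lies at 1.29 in Huh7 and -1.68 in HepG2, and OTC was tested in neither line.

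Whether the change with resistance differs between the lines was tested as the interaction of line and resistance over all 12 samples. It was called for 5 of 8 members tested, 4 with a higher and 1 with a lower change in Huh7, where 28.8% of all genes were called, 10.6% higher and 18.2% lower. The change in Huh7 exceeded that in HepG2 by 2.97 (SE 0.26) for NAGS, 2.75 (SE 0.23) for ARG2, 2.07 (SE 0.25) for ASS1 and 1.11 (SE 0.27) for SLC25A15 on the log2 scale, with limma adjusted p-values of 7.37e-06, 5.76e-06, 6.93e-05 and 0.00502. For CPS1 the difference was -1.003 (SE 0.15, limma adjusted p = 0.000244), at the edge of the fold, and it was -0.85 with median-ratio and -0.90 with upper-quartile scaling. Without single samples it lay between -1.08 and -0.94. Removing the GC trend took the difference of SLC25A15 to 0.98 and that of CPS1 to -0.66. Without the second parental HepG2 sample, the one with the highest SLC25A15 of its group, these 2 genes were at 0.85 and -0.94 and only 3 members were called. For ASL the difference was 0.79 (limma adjusted p = 0.0232), for ARG1 0.39 (limma adjusted p = 0.331) and for GLS2 -0.24 (limma adjusted p = 0.178).

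ARG2, NAGS and ASS1 passed an adjusted p-value of 0.05 in each line, higher in resistant Huh7 and lower in resistant HepG2 cells. Of the 10688 genes tested in both lines, 365 did so, or 3.42%. For ASS1 the Huh7 side was lost with the GC trend removed, as given above. The median change of all genes differed between the lines by -0.15, and by -0.03 after median-ratio scaling.

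The parental lines also differed in these genes. Of 8 members tested between parental Huh7 and parental HepG2 cells, 1 was called higher and 4 lower in Huh7, where 30.2% of all genes were called, 18.3% higher and 11.9% lower. ARG1, the hepatocyte arginase, was 7.95-fold higher in Huh7 (log2 fold change 2.30, SE 0.23, limma adjusted p = 4.33e-06). ASS1 (-2.60), ARG2 (-2.01), NAGS (-1.35) and CPS1 (-1.23) were lower in Huh7 on the log2 scale, with limma adjusted p-values from 1.51e-07 to 4.66e-05. Between the resistant lines, 3 of 8 were called higher and 1 lower in Huh7, where 26.6% of all genes were called, 13.3% higher and 13.4% lower. ARG1 (2.70), NAGS (1.62) and ASL (1.04) were higher and CPS1 (-2.23) was lower in resistant Huh7 cells. NAGS was thus higher in HepG2 among parental cells and higher in Huh7 among resistant cells. ASL fell short of the fold without any of 3 single samples, at 0.92 to 0.97, and with the GC trend removed, at 0.86. Removal was relative to the mean of each line. A GC trend that differs between Huh7 and HepG2 thus stays in the comparisons of this paragraph. GLS2 was called in neither comparison, at -0.69 between parental (limma adjusted p = 0.000117) and -0.93 between resistant lines (limma adjusted p = 1.16e-05). Its groups were apart in both, with means 4.37-fold and 4.89-fold lower in Huh7. With a pseudocount of 0.1 it was at -1.72 and -1.99, and with the GC trend removed at -0.53 and -1.09. Its exons overlap with another gene, as given below.

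Within a group, the order of the members' levels per length also differed. In parental HepG2 cells ARG2 and ASS1 came first, at 51.8 and 49.6 FPKM, and in resistant HepG2 cells SLC25A15, ASS1 and ARG2 came within 15.3 to 13.7 FPKM of each other. In parental Huh7 cells ARG2, SLC25A15 and ARG1 were at 11.97, 11.5 and 10.2 FPKM, and in resistant Huh7 cells SLC25A15 came first, at 27.9 FPKM. Across groups, NAGS in parental HepG2 and resistant Huh7 cells overlapped, as did NAGS in parental Huh7 and resistant HepG2 cells. ARG2 in resistant HepG2 cells overlapped with that in parental Huh7 cells. The 4 groups were all apart for ASS1, in the order of parental HepG2, resistant HepG2, resistant Huh7 and parental Huh7.

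Ratios within a sample put paired enzymes side by side. The level of NAGS over that of CPS1 was 1.31, 1.23 and 1.04 in parental Huh7 samples and 0.994, 1.43 and 1.46 in parental HepG2 samples. It was 10.8, 7.19 and 11.3 in resistant Huh7 samples and 0.247, 0.308 and 0.339 in resistant HepG2 samples. The parental lines thus overlapped in this ratio and the resistant lines lay on opposite sides of them. These ratios come from the deposited values, with the GC trend kept, and NAGS has 63.8% GC against 43.8% for CPS1. Removing the trend took the log2 fold change in Huh7 from 1.29 to 0.81 for NAGS and from -0.93 to -0.65 for CPS1. ARG2 over ARG1, the mitochondrial over the cytosolic arginase, was 0.859 to 1.58 in parental and 1.72 to 2.36 in resistant Huh7 samples, and 29.1 to 88.3 in parental and 7.63 to 25.5 in resistant HepG2 samples. ASS1 over ASL was 1.89 to 2.87 in all 6 Huh7 samples, 14.3 to 25.0 in parental HepG2 and 7.69 to 10.0 in resistant HepG2 samples.

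**Figure D4:**
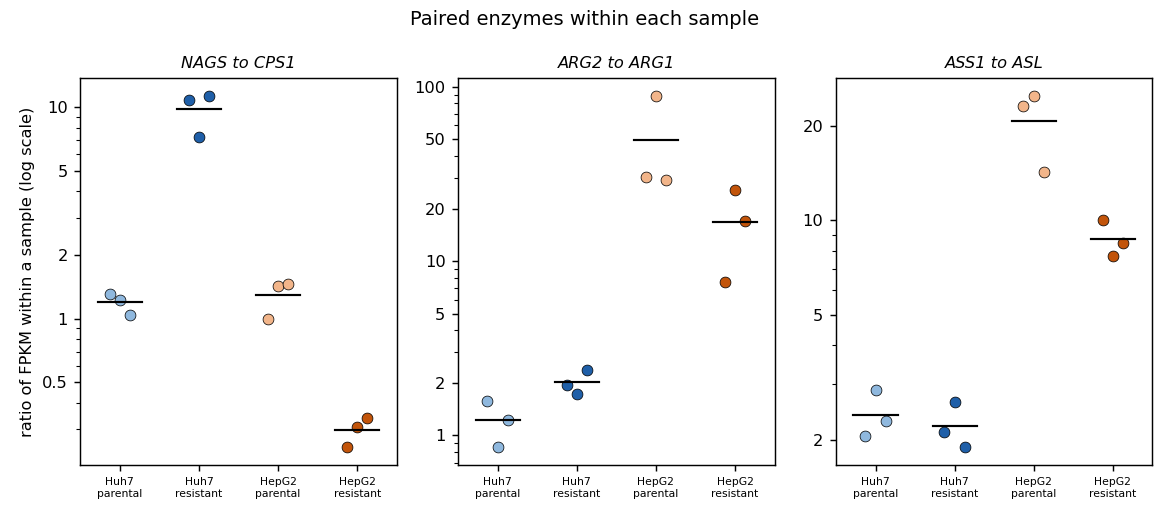
Ratio of the FPKM of 2 genes within each sample (y axis, log scale) for NAGS to CPS1, ARG2 to ARG1 and ASS1 to ASL in the 4 groups (x axis). The GC trend of the libraries was not removed. Points are samples and lines group means; the NAGS to CPS1 ratio is near 1 in both parental lines and averages 9.77 in resistant Huh7 and 0.298 in resistant HepG2 cells.

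Some members share exon bases with other genes, and the library kit named in the labels does not keep strand, so that such reads cannot be assigned with certainty. VTI1B, on the opposite strand, covers 37.4% of the exon bases of ARG2. It was lower in resistant Huh7 cells (log2 fold change -0.68, limma adjusted p = 0.00148), with 0.41 in HepG2 (limma adjusted p = 0.175), the reverse of the signs of ARG2. SPRYD4, on the opposite strand, covers 77.1% of the exon bases of GLS2, and its log2 fold change was 0.79 in Huh7 (limma adjusted p = 0.000348) and 0.22 in HepG2 (limma adjusted p = 0.332), so the level of GLS2 is uncertain. AC068533.4, on the same strand, covers 17.6% of the exon bases of ASL.

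Neighbouring pathways were described from 6 lists of 55 genes, of which 54 were found. In Huh7, 9 of 39 tested genes were called higher and 1 lower, and in HepG2, 0 of 40 were called higher and 5 lower. With the GC trend removed, 4 were called in Huh7, all higher, and GOT1, GOT2, SMOX, SRM and ALDH4A1 missed the fold. The interaction was called for 14 of 44, each with the change higher in Huh7 than in HepG2. The lists are described by these counts beside the background given above, and were not tested as lists.

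Of the 9 tested ammonia, glutamate and glutamine enzymes, 2 were called higher in Huh7 and 1 was called lower in HepG2. GOT1, the cytosolic aspartate aminotransferase, rose from 12.2 ± 2.08 to 31.3 ± 2.47 FPKM in Huh7 (log2 fold change 1.30) and fell from 151 ± 31.9 to 34.9 ± 7.60 FPKM in HepG2 (-2.08, limma adjusted p = 0.000709). GOT2, its mitochondrial counterpart, rose in Huh7 (1.25, limma adjusted p = 9.3e-05), with -0.36 in HepG2 (limma adjusted p = 0.174). The median log2 fold change of the list was 0.30 in Huh7 and -0.36 in HepG2.

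Polyamine synthesis starts from ornithine, which arginases release. Of the 9 tested polyamine enzymes, 5 were called higher in Huh7 and 1 was called lower in HepG2. With the fold left aside, 6 were higher and 1 was lower in Huh7 at a limma adjusted p-value under 0.05. ODC1, which makes putrescine from ornithine, rose from 78.1 ± 8.10 to 230.4 ± 11.9 FPKM in Huh7 (log2 fold change 1.55), with -0.44 in HepG2 (limma adjusted p = 0.113). SMOX, the spermine oxidase, rose from 4.88 ± 0.575 to 13.4 ± 1.80 FPKM in Huh7 (1.28) and fell from 47.7 ± 9.61 to 9.04 ± 1.77 FPKM in HepG2 (-2.27, limma adjusted p = 0.000424). SAT1, which acetylates spermidine and spermine, rose in Huh7 (1.38) and stood at -0.90 in HepG2 (limma adjusted p = 0.0219), where it passed the fold without the second (-1.02) or the third (-1.02) parental sample. SRM, the spermidine synthase, rose in Huh7 (1.27), with 0.60 in HepG2 (limma adjusted p = 0.106). The fifth gene called, the spermine synthase SMS (1.07 in Huh7), lies outside the naming rule and was named after its value was seen. The median log2 fold change was 1.07 in Huh7 and -0.02 in HepG2.

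Of the 6 tested ornithine and proline enzymes, only ALDH4A1, which oxidises the proline breakdown product to glutamate, was called, higher in Huh7 (log2 fold change 1.04, limma adjusted p = 0.000373) with -0.65 in HepG2 (limma adjusted p = 0.0568). In Huh7 it missed the fold without the first resistant sample (0.96) and without the third parental sample (0.93). None of the creatine and nitric oxide enzymes was called, of 4 tested in Huh7 and 3 in HepG2. Of the carriers, 1 of 6 was called higher in Huh7 and 1 of 7 lower in HepG2. SLC1A5, the glutamine carrier, rose from 7.74 ± 1.58 to 28.9 ± 4.30 FPKM in Huh7 (1.78), with -0.85 in HepG2 (limma adjusted p = 0.0109). SLC7A2, a carrier of arginine and ornithine, fell from 108.5 ± 21.8 to 31.2 ± 4.84 FPKM in HepG2 (-1.76, limma adjusted p = 0.00102), with -0.49 in Huh7 (limma adjusted p = 0.0151).

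Of the regulators of urea cycle genes and enzymes, 0 of 5 were called in Huh7 and 2 of 6 were called lower in HepG2. CEBPB fell from 43.7 ± 7.50 to 18.7 ± 1.69 FPKM in HepG2 (log2 fold change -1.17, limma adjusted p = 0.00255) and was at 0.49 in Huh7 (limma adjusted p = 0.00921). PPARGC1A, a coactivator of the fasting program in liver, fell from 11.7 ± 3.14 to 5.01 ± 1.16 FPKM in HepG2 (-1.08, limma adjusted p = 0.0111). It missed the fold without the second resistant HepG2 sample (-0.96) and without the first parental HepG2 sample (-0.88). It was at 0.829 ± 0.101 FPKM in parental and 0.0948 ± 0.0198 FPKM in resistant Huh7 cells, under 1 FPKM in all samples, and was not tested there.

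**Figure D5:**
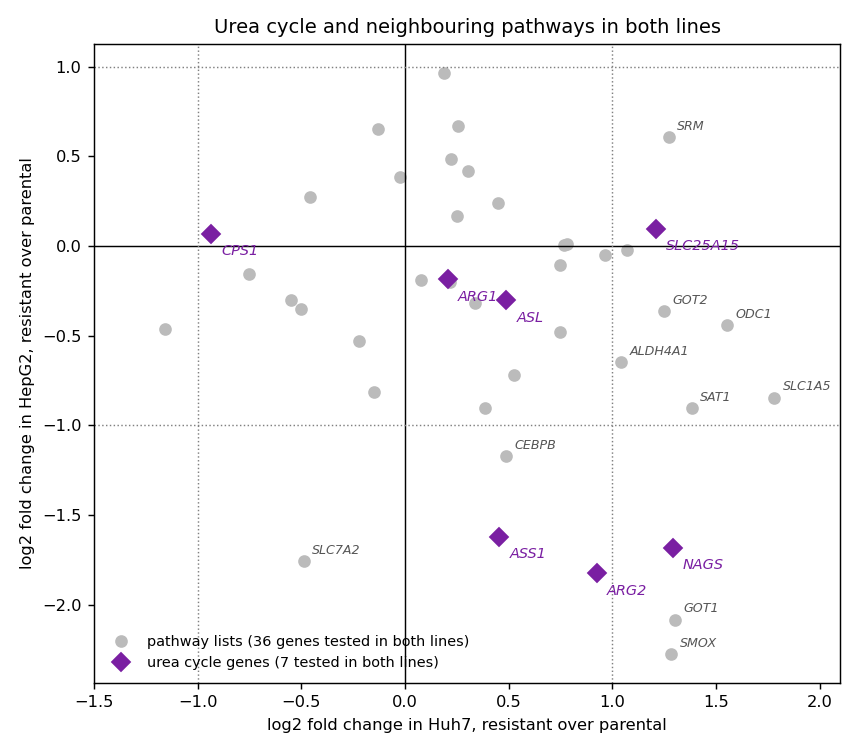
log2 fold change with resistance in Huh7 (x axis) and in HepG2 (y axis) for the 7 members tested in both lines (purple diamonds) and the 36 pathway genes tested in both (grey circles), with dotted lines at the fold required. NAGS, GOT1 and SMOX lie past the fold in both lines, to the right and below; ARG2 and ASS1 lie below it, between 0 and 1 on the Huh7 axis.

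The genes whose pattern over the 12 samples was most like that of a member were found among 13800 genes by the root mean square difference of centred log2(FPKM + 1). They were ADK, HACD1 and MYO5B for CPS1 (0.10 to 0.15), NDE1, CYP2B6 and ORM2 for ASS1 (0.13 to 0.22), and FES, SPOUT1 and USP20 for ASL (0.09 to 0.12). For ARG1 they were CYP39A1, DYNC1I1 and ALX1 (0.25 to 0.28), for ARG2 PPP1R15A and WASF2 (0.27 to 0.28), and for NAGS IL4R, CLIC1 and HES1 (0.24 to 0.26). For SLC25A15 they were PSME3, SNX12 and NDUFB9 (0.13 to 0.14) and for GLS2 MOK, MKS1 and ABCG8 (0.10 to 0.11). No member was among the 3 nearest genes of another member.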

How the data were processed

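RNA of Huh7 and HepG2 cells was sequenced in 4 groups of 3 samples, taken from the sample labels. The RNA kit in the labels is not that of the study's methods, and the submitters' processing notes name bcl2fastq and GRCh38. The aligner and the quantification tool are not given in the sources used here. The authors deposited 1 table of decimals per sample without a unit. How the authors made these values, called FPKM here, before they deposited them is not stated. They are taken as FPKM since the value multiplied by GENCODE 29 exon length and one factor per library gave whole reads, within 0.05, for all 9 members in all 12 samples (96.4% of all values of up to 2000 reads). RPKM cannot be told from FPKM.

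Values were read with Python 3.11.15 and pandas 2.3.3 and fitted as log2(FPKM + 1) with limma 3.58.1 in R 4.3.3 (empirical Bayes with a trend, two-sided), with 6 samples for a change within a line and 12 for comparisons between lines, for genes that reached 1 FPKM in 3 or more samples. P-values were adjusted by Benjamini-Hochberg over all genes tested. Fold changes on this scale understate those of low genes. The fit recovered most of the changed genes when tested on simulated data, where the changes were well past the fold required. Low genes were left out or left unchanged there, and no GC trend was simulated. That test says nothing on changes near the fold, on low genes or on the GC trend. The members, the pathway and marker lists and the tests were chosen with earlier results of these data known. Besides all members, the genes named were up to 4 called genes per pathway list, those with the largest change, and the 3 nearest genes to each member with a group mean of at least 1 FPKM. Some genes that this rule selects are left out. Alternatives were a pseudocount of 0.1, no filter, upper-quartile and median-ratio scaling, removal of a lowess GC trend (span 0.3), limma-voom, no variance trend, a single fit of the 12 samples, a block on replicate number, and leaving out each sample. The GC trend of a library was fitted to its deviation from the mean of its line, so differences in GC trend between the lines were kept. The other 71462 rows, which carry no Ensembl identifier, were not analysed here. The reads carry no molecular identifiers.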

Additional observations from a re-analysis of the deposited data

Results flagged for a closer look

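The change with resistance differed between Huh7 and HepG2 for 5 of the 8 genes tested, by the limma test of the interaction of line and resistance, where 28.8% of all genes were called. The difference, Huh7 minus HepG2 on the log2 scale, was 2.97 for NAGS, 2.75 for ARG2, 2.07 for ASS1, 1.11 for SLC25A15 and -1.003 for CPS1. All 3 resistant Huh7 samples were above and all 3 resistant HepG2 samples below their parental samples for NAGS, ARG2 and ASS1. For SLC25A15 and CPS1, the Huh7 groups were apart and the HepG2 groups overlapped.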

How the results depend on the processing

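In HepG2, 3 members were called under each alternative and without each single sample. In Huh7, 2 members were called in the reported fit, 0 with the GC trend removed, and 2 to 4 without one sample each, with 4 when the third parental Huh7 sample was left out, as CPS1 (-1.01) and ARG2 (1.01) then passed the fold. The difference between lines was called for 5 members as reported, for 3 with the GC trend removed and for 3 to 5 without one sample each. Called pathway genes in Huh7 went from 10 to 4 with the GC trend removed. The signs of ASL (-0.054), ASS1 (-0.078) and SLC7A2 (0.064) in Huh7 reversed with the GC trend removed, and none of these then had an adjusted p-value under 0.05. The difference between lines of PPARGC1A went from 0.34 to -1.05 with a pseudocount of 0.1 and to -1.97 with limma-voom, and to 1.004 with the GC trend removed (limma adjusted p = 0.00144); the cause was not tested. Over all genes, the 2838 called in Huh7 became 1487 (701 higher and 786 lower) with the GC trend removed and 4278 (1434 higher and 2844 lower) with limma-voom, and the 737 called in HepG2 became 1176 (683 higher and 493 lower) with limma-voom. ARG1 in HepG2 fell under the filter in 3 of its 6 fits without one sample. Correlations of deviations between samples of the same number were 0.07, 0.05 and -0.20 in Huh7 and 0.22, 0.39 and -0.01 in HepG2. Not every sample correlated best with its own number, and these values do not settle whether the numbers pair the samples. With the replicate number as a block, 2 members were called in Huh7 and 3 in HepG2, and no call of a member changed in any comparison. OTC and GLS2 in Huh7 rest on 5 to 30 reads a sample, which limits what can be detected.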
